A study of Mus musculus with 11 samples.

Results

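The 9 genes Arsb, Sgsh, Idua, Glb1, Hexa, Gm2a, Gaa, Ctsa and Psap encode lysosomal proteins that take apart glycans or help enzymes to do so. Their transcripts were followed across 3 populations of CD4+ T cells. They are 9 of the 909 genes named in a table of 1246 probe sets from a custom glycan gene array. Each gene was found by the RefSeq transcript in its probe set's name and had 1 row, so the rule to take the brightest row of a gene was never needed. The 9 were chosen with earlier results in view, evidently selected on the log2 expression of regulatory against CD45RBhigh cells, since every one of them differs there. The members' values in that contrast are therefore given as a description with no p-values, and calls there are counted only beside those of all probe sets. Hydrolases make up 7 of the members, while Gm2a and Psap encode activator proteins without catalytic activity of their own.

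The study compared glycosylation genes of regulatory and conventional CD4+ T cells, obtained from spleens of female C57BL/6 mice by cell sorting, with no transgene or treatment named. The populations were CD4+CD25+(CD45RBlow) cells, labelled Treg (n = 3, replicates 1, 2 and 4), CD4+CD25-CD45RBlow cells, labelled activated or memory (n = 4), and CD4+CD25-CD45RBhigh cells, labelled naive (n = 4). CD25 belongs to the receptor for interleukin-2, while CD45RB is a form of a surface phosphatase that naive CD4+ cells carry at a high level. The CD25- samples came from mice of 4 to 6 weeks, and the labels give no age for the Treg samples, so whether ages differed is unknown. No label says whether replicates were separate animals or pools, so each p-value reflects the spread among these samples alone, which may be technical. All values are log2 expression from Robust Multichip Average (RMA), so a difference of 1 is a doubling, and the small number of arrays limits the precision of each.

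Il2ra, which encodes CD25, read 9.69 to 10.02 in Treg, 5.77 to 6.54 in CD45RBlow and 3.85 to 4.45 in CD45RBhigh arrays. The CD25 sort would put Treg highest but gives no order between the CD25- populations. Between these, Il2ra was higher in CD45RBlow cells by 2.10 (adjusted p = 1.28e-05 in limma), and the cause was not tested. The adhesion receptor gene Cd44 averaged 9.25 ± 0.49 in Treg (SD, n = 3), 9.31 ± 0.63 in CD45RBlow and 7.81 ± 0.38 in CD45RBhigh arrays (SD, n = 4 each), and the homing receptor gene Ccr7 averaged 10.37 ± 0.12, 10.69 ± 0.17 and 11.38 ± 0.13 in the same order. Cd4 and Foxp3 were not analysed here. Macrophages are rich in lysosomes, and of 10 measured myeloid markers 1 (Cd209a) was lower and 0 higher in Treg than in CD45RBhigh cells, and 3 (Cd209a, Clec10a and Siglech) were lower in CD45RBlow than in CD45RBhigh cells. Of all probe sets, 8.59% were called lower and 10.3% higher in the first of these comparisons, and 4.98% lower in the second. The log2 values of these 10 markers summed to 37.5 to 38.1 in Treg, 36.9 to 37.6 in CD45RBlow and 38.0 to 39.5 in CD45RBhigh arrays, none at 0, since RMA gives no zeros. Their single values ran from 2.59 to 5.19, where the first quartile of all values was 3.64 and the median 4.88. Whether these markers read above background is unknown, so the sums need not show myeloid content. The B cell markers Cd22 and Cd72 summed to 14.5 to 14.8 in Treg, 13.6 to 14.4 in CD45RBlow and 13.6 to 13.9 in CD45RBhigh arrays. Both were called higher in Treg than in CD45RBhigh cells, Cd72 was higher (0.85) and Cd22 lower (-0.30) in Treg than in CD45RBlow cells, and Cd22 was higher in CD45RBlow than in CD45RBhigh cells (0.59). The 3 NK and CD8 T cell markers summed to 8.80 to 9.64 in Treg, 13.8 to 15.1 in CD45RBlow and 14.8 to 15.6 in CD45RBhigh arrays. Of these Klrd1 was called lower in Treg than in CD45RBlow (-4.35) and CD45RBhigh cells (-5.29) and in CD45RBlow than in CD45RBhigh cells (-0.94), and Klra3 in Treg than in CD45RBhigh cells (-0.45). Klra3 averaged 2.61 in Treg and 3.05 in CD45RBhigh arrays, both under the first quartile of all values. Selp, the 1 platelet marker measured, was called higher in Treg than in CD45RBlow cells (0.48) and CD45RBhigh cells (0.37). The part of these markers in the results below was not tested. In sorted bulk samples, fewer cells of a kind and less RNA per cell cannot be told apart.

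Lysosomal hydrolases trim glycans from one end, each removing 1 kind of sugar or sulfate before the next can act. Glycosaminoglycans such as heparan, dermatan and chondroitin sulfate are undone by sulfatases and glycosidases in turn, gangliosides need small activator proteins that lift the lipid to the enzyme, and glycogen is cut by an acid glucosidase. In humans the loss of any of these 9 genes causes a lysosomal storage disease. Many lysosomal genes carry a motif near their start, the CLEAR element, to which the transcription factor TFEB binds.

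The promoters of the 9 genes were read for that motif, to show what sequence the members do and do not share. RefSeq windows (GRCm38.p6) from 250 bases before to 50 after a gene's start were found for 9 of 9 genes, 11 windows in all. All motifs were read on both strands. The full CLEAR palindrome, TCACGTG with G before it and AC after it, was in 0 of the 9 genes and in 0.370% of the 27025 genes with a window. Its inner part TCACGTG was in 4 of the 9 genes, Sgsh, Gaa, Ctsa and Glb1, and in 4.29% of all genes. The still shorter CACGTG, which lies within both longer motifs, was in the same 4 genes and in 8.09% of all genes. A match is only a match of letters. A stretch with a match follows for each of the 4, together with one of Arsb, which has none and which had the largest differences of the 9 in both Treg comparisons. Capitals mark TCACGTG or its reverse complement. In Ctsa both overlap, and a second such pair, which begins 5 bases into the transcript, lies outside the stretch shown.
Sgsh (chr11:119355511-119355540, minus strand): gCACGTGAccgtggggagcggacgagccgg
Gaa (chr11:119267793-119267852, plus strand): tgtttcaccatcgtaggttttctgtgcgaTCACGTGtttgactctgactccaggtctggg
Ctsa (chr2:164833743-164833772, plus strand): gaacaatgagcaaactgTCACGTGAtgcag
Glb1 (chr9:114401018-114401077, plus strand): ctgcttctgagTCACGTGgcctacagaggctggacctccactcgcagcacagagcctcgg
Arsb (chr13:93771619-93771678, plus strand): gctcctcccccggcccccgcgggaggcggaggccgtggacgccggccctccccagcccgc

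Treg cells held less transcript of 7 members and more of 2 than CD45RBhigh cells. Arsb was lower by a factor of 2.22, Sgsh, Hexa, Idua, Gaa, Psap and Ctsa by factors of 1.41 to 1.17, and Glb1 and Gm2a were higher by 1.40 and 1.31. At an adjusted p under 0.05 in limma 9 of 9 were called, 2 higher and 7 lower, where 18.9% of all probe sets were called, 10.3% as higher and 8.59% as lower. With the replicate number as a block, again 9 of 9 were called, where 26.5% of all probe sets were (12.1% higher, 14.4% lower). Without Treg replicate 1, 2 or 4 the count was 5, 4 or 4 members. Nothing is read from these shares, because the members are treated as gathered with this contrast in view. Treg and CD45RBhigh arrays did not overlap for 8 of 9 members, against 25.0% of all probe sets, and Ctsa was the exception. The median difference of the 9 was -0.47, beside -0.04 over all probe sets. The plot of values by array shows each member in each population.

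**Figure D1:**
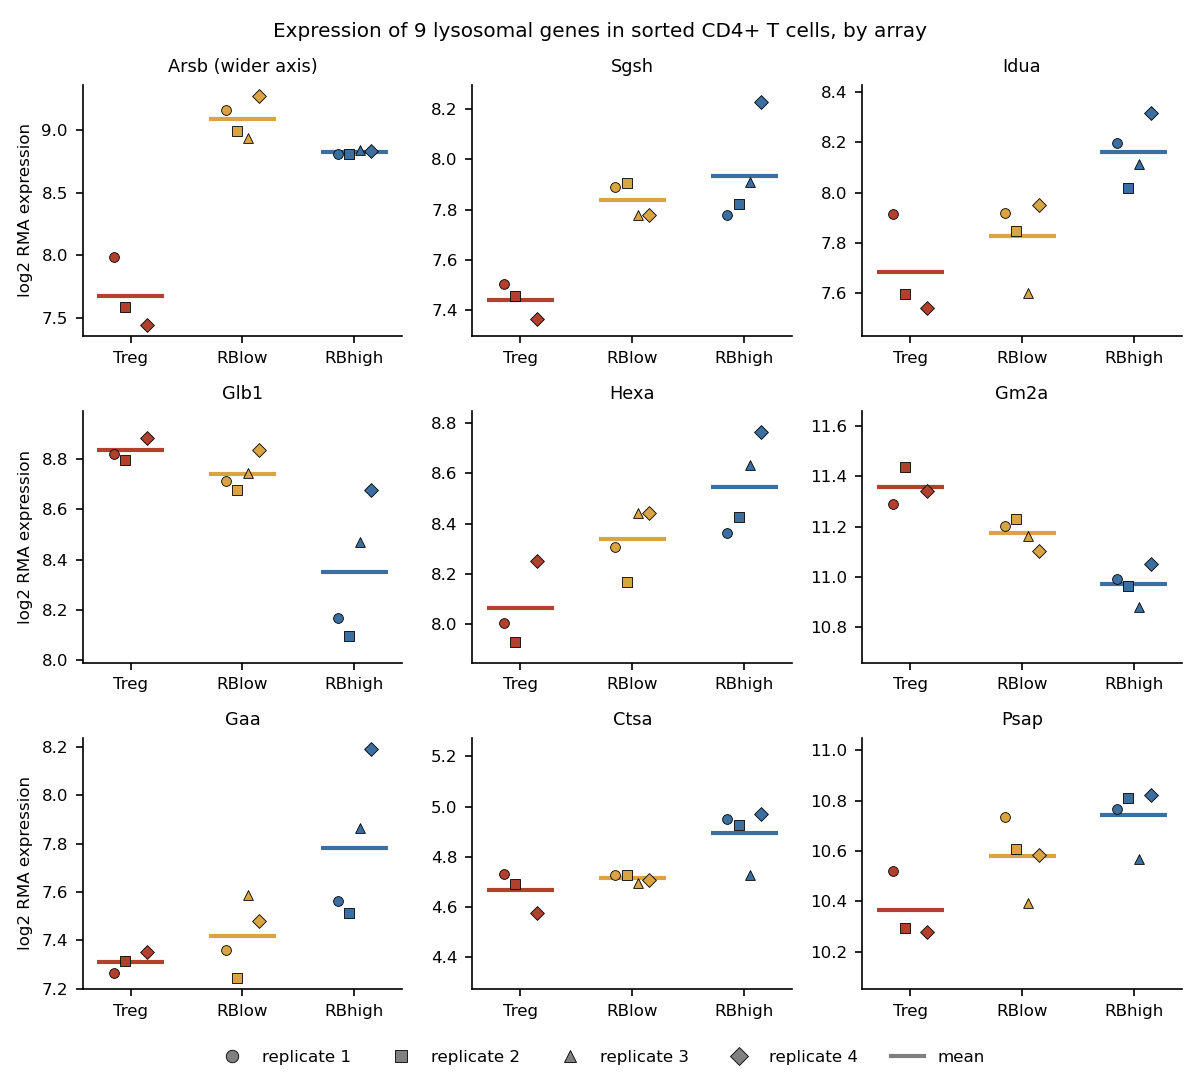
Log2 RMA expression of the 9 genes (vertical axes) in Treg, CD25- CD45RBlow (RBlow) and CD25- CD45RBhigh (RBhigh) arrays, 1 point per array with the shape giving the replicate number and a bar at the population mean. The vertical range is about the same in all panels but wider for Arsb, whose 3 Treg arrays (7.45 to 7.99) lie below all 8.81 to 9.27 of the other arrays, while Glb1 and Gm2a run the other way.

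Among the enzymes of glycosaminoglycan breakdown, Arsb removes the 4-sulfate of N-acetylgalactosamine from dermatan and chondroitin sulfate, and its loss causes Maroteaux-Lamy disease. It read 7.99, 7.58 and 7.45 in Treg replicates 1, 2 and 4, against 9.16, 8.996, 8.94 and 9.27 in CD45RBlow and 8.81, 8.81, 8.84 and 8.84 in CD45RBhigh replicates 1 to 4. The Treg arrays lay at least 0.82 below every other array. Treg cells were lower than CD45RBhigh cells by a log2 difference of -1.15 (SE 0.12) and lower than CD45RBlow cells by -1.42 (SE 0.12), which is 2.68-fold. Arsb thus fell relative to CD45RBlow cells, with an adjusted p of 1.38e-05 in limma and of 3.87e-06 to 0.0150 over the alternatives. The order was Treg, then CD45RBhigh, then CD45RBlow, and although the last 2 did not overlap, their difference of 0.27 (95% interval 0.02 to 0.51) did not pass (adjusted p = 0.153 in limma).

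Sgsh encodes sulfamidase, which takes the N-sulfate from heparan sulfate and is lost in a form of Sanfilippo disease. Its values were 7.50, 7.46 and 7.37 in Treg, 7.89, 7.91, 7.78 and 7.78 in CD45RBlow and 7.78, 7.82, 7.91 and 8.23 in CD45RBhigh arrays. Treg arrays were thus below all others, while the CD25- populations overlapped. Sgsh fell in Treg relative to CD45RBlow cells, with a difference of -0.40 (SE 0.10, adjusted p = 0.0229 in limma), and was lower by -0.49 (SE 0.10) than in CD45RBhigh cells. The call against CD45RBlow cells ended without any 1 of the Treg arrays or without CD45RBlow replicate 1 or 2, where the adjusted p reached 0.0813. CD45RBlow and CD45RBhigh cells differed by -0.09 (95% interval -0.30 to 0.11), and this sign turned within replicates 1 and 2 (0.10). The probe set's name carries the suffix s, so it may read more than 1 transcript.

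Idua, the iduronidase that acts on both heparan and dermatan sulfate and is deficient in Hurler disease, had a different order. It read 7.92, 7.60 and 7.54 in Treg, 7.92, 7.85, 7.60 and 7.95 in CD45RBlow, and 8.20, 8.02, 8.11 and 8.32 in CD45RBhigh arrays. Both CD45RBlow populations, CD25+ and CD25-, lay under every CD45RBhigh array and overlapped with each other. The difference of Treg from CD45RBhigh cells was -0.48 (SE 0.11). That of CD45RBlow from CD45RBhigh cells was -0.33 (SE 0.11), with an adjusted p of 0.0651 in limma, or 0.0207 with the replicate number as a block. Treg and CD45RBlow cells differed by -0.14 (95% interval -0.39 to 0.11, adjusted p = 0.522 in limma).

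Of the members that take apart gangliosides, Glb1 encodes the beta-galactosidase that turns the ganglioside GM1 into GM2 and that also trims keratan sulfate and glycoproteins. It read 8.82, 8.80 and 8.88 in Treg and 8.71, 8.68, 8.75 and 8.84 in CD45RBlow arrays. CD45RBhigh arrays read 8.17, 8.10, 8.47 and 8.68, with replicates 1 and 2 well under replicates 3 and 4. Glb1 was higher in Treg than in CD45RBhigh cells by 0.48 (SE 0.12), or by 0.68 within replicates 1 and 2 and by 0.31 within replicates 3 and 4. It rose in CD45RBlow relative to CD45RBhigh cells by 0.39 (SE 0.11, adjusted p = 0.0443 in limma). That call ended without any 1 of 10 of the 11 arrays (adjusted p up to 0.123), and without the other, CD45RBhigh replicate 4, it was 0.00428. Treg and CD45RBlow cells differed by 0.09 (95% interval -0.17 to 0.36, adjusted p = 0.717 in limma).

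Hexa encodes the alpha subunit of beta-hexosaminidase, which removes the N-acetylgalactosamine of GM2 and whose loss causes Tay-Sachs disease. Its values were 8.005, 7.93 and 8.25 in Treg, 8.31, 8.17, 8.44 and 8.44 in CD45RBlow, and 8.36, 8.43, 8.63 and 8.76 in CD45RBhigh arrays. The 3 means, 8.06, 8.34 and 8.55, stood in that order, but CD45RBlow arrays overlapped with those of both other populations. Treg cells were lower than CD45RBhigh cells by -0.48 (SE 0.12). Against CD45RBlow cells the difference was -0.28 (SE 0.12), with an adjusted p of 0.176 in limma and of 0.0324 with the replicate block. CD45RBlow cells stood lower than CD45RBhigh cells by -0.21 (SE 0.11), with 0.227 in limma and 0.0402 with the block.

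Gm2a, the activator that presents GM2 to hexosaminidase, differed in the opposite direction to Hexa. It read 11.29, 11.44 and 11.34 in Treg, 11.20, 11.23, 11.16 and 11.10 in CD45RBlow, and 10.99, 10.96, 10.88 and 11.05 in CD45RBhigh arrays. No 2 of the 3 populations overlapped. Gm2a was higher in Treg than in CD45RBhigh cells by 0.39 (SE 0.06) and rose in CD45RBlow relative to CD45RBhigh cells by 0.20 (SE 0.06, adjusted p = 0.0442 in limma). That call ended without any 1 of 8 of the 11 arrays (adjusted p up to 0.120 in limma). The difference of Treg from CD45RBlow cells was 0.18 (95% interval 0.05 to 0.32, adjusted p = 0.0930 in limma).

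Psap encodes prosaposin, which is cut into 4 saposins that help in the breakdown of several sphingolipids. Its values were 10.52, 10.29 and 10.28 in Treg, 10.73, 10.61, 10.39 and 10.59 in CD45RBlow, and 10.77, 10.81, 10.57 and 10.82 in CD45RBhigh arrays. The highest Treg array came within 0.05 of the lowest CD45RBhigh array, and CD45RBlow arrays spanned the gap. Treg cells were lower than CD45RBhigh cells by -0.38 (SE 0.10), or by -0.21 after quantile normalization. Against CD45RBlow cells the difference was -0.22 (SE 0.10), with an adjusted p of 0.222 in limma and of 0.0231 with the replicate block. CD45RBlow differed from CD45RBhigh cells by -0.16 (95% interval -0.36 to 0.04, adjusted p = 0.254 in limma).

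Because Gm2a and Glb1 stood opposite to Hexa, their log2 values were set against Hexa within each array, where any scaling of a whole array cancels. These pairs were chosen after their values were seen and were not tested, and only the change of a difference between populations can be read, not its size. Gm2a minus Hexa was 3.29, 3.51 and 3.09 in Treg, 2.90, 3.06, 2.72 and 2.66 in CD45RBlow, and 2.63, 2.54, 2.24 and 2.29 in CD45RBhigh arrays. All Treg arrays lay above all CD25- arrays and all CD45RBlow above all CD45RBhigh arrays. Glb1 minus Hexa averaged 0.77 ± 0.12 in Treg (SD, n = 3), 0.40 ± 0.08 in CD45RBlow and -0.19 ± 0.10 in CD45RBhigh arrays (SD, n = 4 each), again with no overlap.

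**Figure D2:**
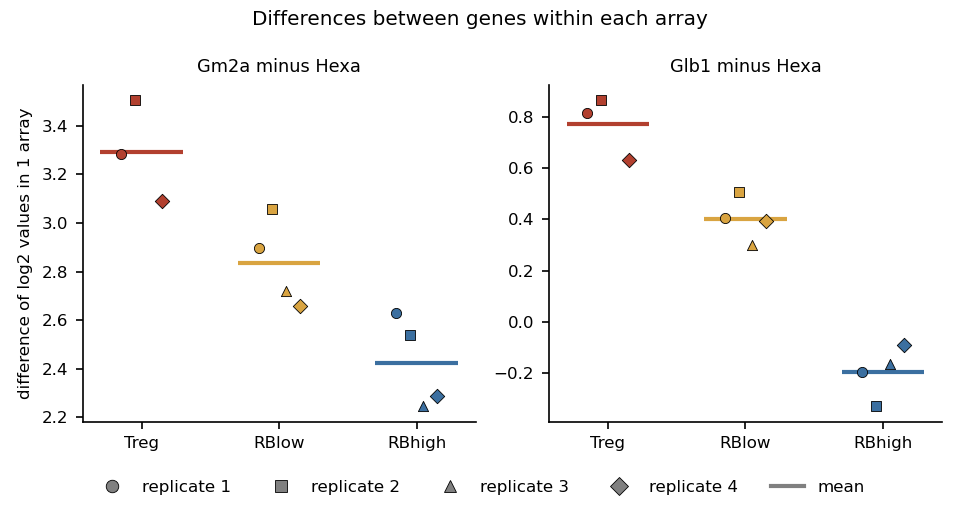
Difference of log2 RMA values between 2 genes of the same array (vertical axis), for Gm2a minus Hexa and Glb1 minus Hexa in Treg, CD45RBlow and CD45RBhigh arrays, with 1 point per array, the shape giving the replicate number, and a bar at the mean. Means of Gm2a minus Hexa were 3.29, 2.83 and 2.42 in these populations, and the populations do not overlap in either panel.

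Of the remaining members, Gaa encodes the acid glucosidase that degrades glycogen and is deficient in Pompe disease. Gaa read 7.27, 7.32 and 7.35 in Treg, 7.36, 7.25, 7.59 and 7.48 in CD45RBlow, and 7.56, 7.51, 7.87 and 8.19 in CD45RBhigh arrays. The CD45RBhigh arrays were the most spread of any member in any population (SD 0.31). Treg cells were lower than CD45RBhigh cells by -0.47 (SE 0.15), or by -0.25 within replicates 1 and 2 and -0.67 within replicates 3 and 4, and by -0.34 without CD45RBhigh replicate 4. CD45RBlow cells stood lower than CD45RBhigh cells by -0.37 (SE 0.14), with an adjusted p of 0.112 in limma and of 0.0233 with the replicate block. Treg and CD45RBlow cells differed by -0.11 (95% interval -0.43 to 0.22, adjusted p = 0.730 in limma).

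Ctsa encodes cathepsin A, a carboxypeptidase that also shields beta-galactosidase and the sialidase Neu1 from degradation in a shared complex, and its loss causes galactosialidosis. It read 4.73, 4.69 and 4.58 in Treg, 4.73, 4.73, 4.70 and 4.71 in CD45RBlow, and 4.95, 4.93, 4.73 and 4.97 in CD45RBhigh arrays. Its mean over all arrays, 4.77, was under the median of the table, 4.88, and no detection calls were used, so whether this probe set reads above background is unknown. Treg cells were lower than CD45RBhigh cells by -0.23 (SE 0.07), with overlap at CD45RBhigh replicate 3. CD45RBlow cells stood lower than CD45RBhigh cells by -0.18 (SE 0.06, adjusted p = 0.104 in limma), and Treg and CD45RBlow cells differed by -0.05 (95% interval -0.20 to 0.10).

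Between Treg and CD45RBlow cells, then, Arsb and Sgsh were called lower and 0 of the 9 higher, so 2 of 9 members were called, against 12.5% of all probe sets (6.74% higher, 5.78% lower). With the replicate block Hexa and Psap were added as lower, which made 4 of 9, against 19.7% of all probe sets (8.99% higher, 10.7% lower). Treg and CD45RBlow arrays did not overlap for 3 of 9 members, against 21.3% of all probe sets. The median difference was -0.14, beside 0.04 over all probe sets. Between CD45RBlow and CD45RBhigh cells Glb1 and Gm2a were called higher and 0 lower, again 2 of 9, against 12.6% of all probe sets (7.62% higher, 4.98% lower). The block added Gaa, Hexa and Idua as lower, which made 5 of 9, against 21.7% (10.0% higher, 11.7% lower). These arrays did not overlap for 3 of 9 members, against 17.8% of all probe sets, and the median difference was -0.16, beside -0.08 over all. Each of the 3 comparisons shares arrays with the contrast taken as the one in which the members were gathered, so these counts are no independent evidence on the 9 genes.

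**Figure D3:**
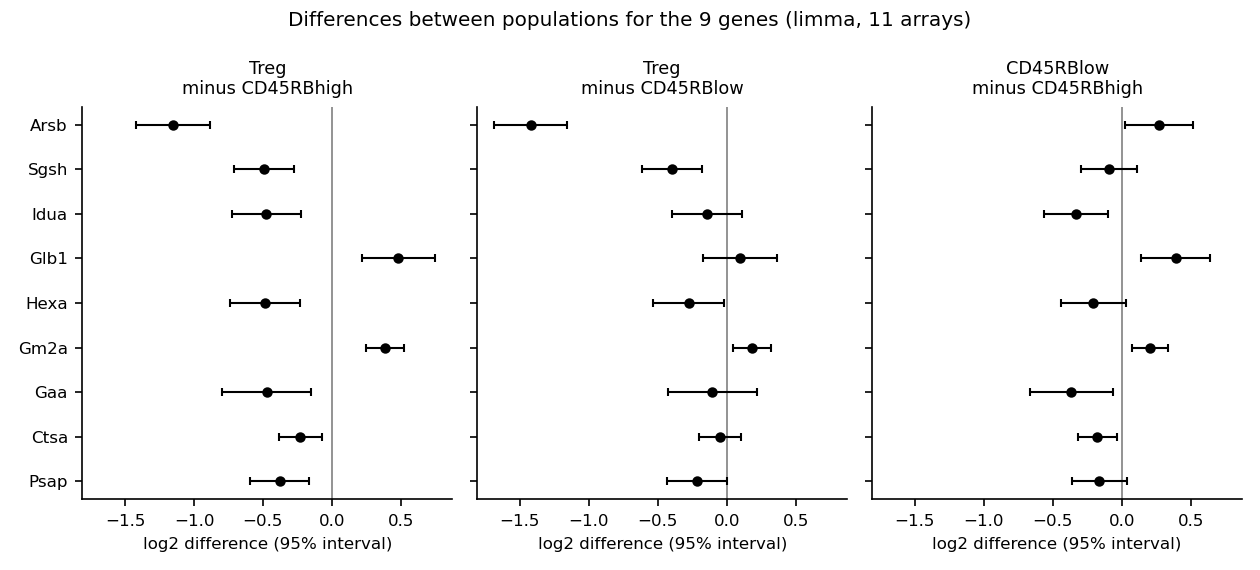
Log2 difference (horizontal axis) with its 95% interval from limma for each of the 9 genes in the comparisons of Treg minus CD45RBhigh, Treg minus CD45RBlow and CD45RBlow minus CD45RBhigh cells. Arsb stands apart in both Treg comparisons (-1.15 and -1.42), and the estimates for Glb1 and Gm2a lie right of 0 in all 3 panels. Between Treg and CD45RBlow cells the intervals of Idua, Glb1, Gaa, Ctsa and Psap include 0.

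Some arrays stood high or low for several members at once. CD45RBhigh replicate 4 was the highest of the 4 CD45RBhigh arrays for 8 of 9 members, all but Arsb, and for 32.3% of all probe sets. Arsb, Sgsh, Idua, Ctsa and Psap were highest in Treg replicate 1 and lowest in Treg replicate 4, as were 33.3% and 28.7% of all probe sets. The same 5 were lowest in CD45RBlow replicate 3, as were 29.1% of all probe sets, with Sgsh tied there with replicate 4. Glb1, Hexa and Gaa were highest in Treg replicate 4, as were 46.3% of all probe sets. Within replicates 1 and 2, and within replicates 3 and 4 with their 1 Treg array, Treg cells differed from CD45RBhigh cells in the same direction as overall for all 9 members. Arsb differed by -1.02 and -1.39 in these sets, Sgsh by -0.32 and -0.70 and Idua by -0.35 and -0.67. Hexa (-0.43 and -0.45), Psap (-0.38 and -0.42), Gm2a (0.39 and 0.38) and Ctsa (-0.23 and -0.28) differed by nearly the same amount in both. Exactly equal values on arrays of 1 population, which median polish in RMA can give, were found for Arsb in CD45RBhigh and for Sgsh and Ctsa in CD45RBlow cells, and for 35.2% of all probe sets in some population, so the SD there rests on fewer distinct values.

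The wider family was taken from a textbook list of 34 lysosomal genes for breaking down glycosaminoglycans, glycosphingolipids, glycoproteins and glycogen, of which 24 were measured under a name, 15 of them outside the 9. The list was also written with earlier results known. Of these 15, limma called 1 higher and 1 lower in Treg than in CD45RBhigh cells, a share of 13.3% beside 18.9% of all probe sets, and their median difference was -0.08. The replicate block added Galc, the galactosylceramidase, as lower (-0.42, or -0.39 with the block and an adjusted p of 0.0250 there in limma), which made 3 of the 15, beside 26.5% of all probe sets. Hpse, the heparanase that cuts heparan sulfate chains, rose by 0.66 (SE 0.15, adjusted p = 0.00863 in limma). Its means, 4.74 in Treg, 4.48 in CD45RBlow and 4.08 in CD45RBhigh arrays, were under the median of the table, 4.88. As for Ctsa, whether this probe set reads above background is unknown. Neu1, the lysosomal sialidase bound by Ctsa, fell by 0.39 (SE 0.12, adjusted p = 0.0438 in limma, up to 0.847 over the alternatives). In all 24 genes, then, 3 were called higher and 8 lower (45.8%, beside 18.9% of all probe sets), and 9 of these 11 are the members described above. Nothing is read from that share, because the members are treated as gathered with this contrast in view. Galns, a sulfatase that removes the 6-sulfate from chondroitin and keratan sulfate, differed by -0.16 (95% interval -0.52 to 0.19).

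**Figure D4:**
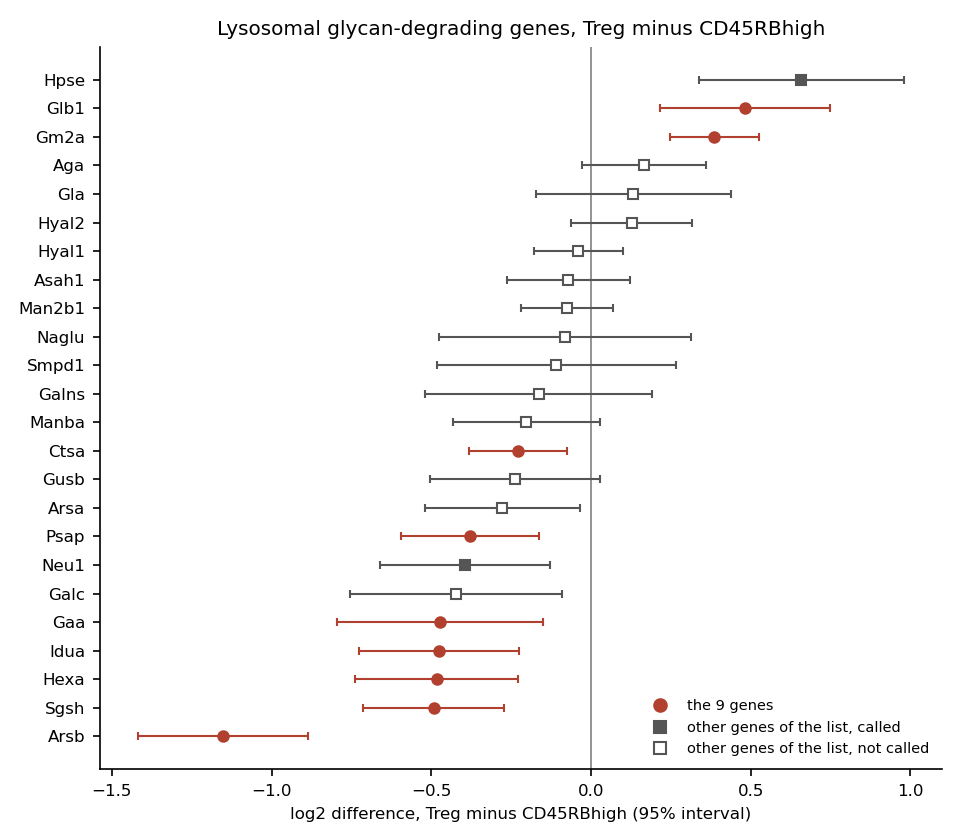
Log2 difference between Treg and CD45RBhigh cells (horizontal axis, with the 95% interval from limma) for 24 lysosomal genes, sorted by size, with the 9 genes as circles and the other 15 as squares, filled where the adjusted p was under 0.05. The 9 circles hold most of the lower end, from -1.15 for Arsb, and 13 of the 15 squares are open.

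Between Treg and CD45RBlow cells limma called 0 of these 15, beside 12.5% of all probe sets. An unadjusted p under 0.05 in limma was reached by 4 of the 15, beside 281 of all 1246 probe sets. The replicate block called 4 (26.7%, beside 19.7% of all). In that fit Gla was higher by 0.28 (adjusted p = 0.0214 in limma), Hyal2 by 0.30 (0.00885) and Naglu by 0.52 (0.00238), and Neu1 was lower by -0.29 (0.0212). Between CD45RBlow and CD45RBhigh cells limma called 0 of 15, beside 12.6% of all probe sets. Here 4 of the 15 reached an unadjusted p under 0.05 in limma, beside 354 of all 1246 probe sets. The block called 4 (26.7%, beside 21.7% of all). There Hpse was higher by 0.40 (adjusted p = 0.0402 in limma), and Galc (-0.41, 0.0134), Gusb (-0.30, 0.0233) and Naglu (-0.55, 0.000783) were lower. Outside the lysosome, the sialidase gene Neu3, whose product acts on gangliosides at the plasma membrane, rose in Treg relative to CD45RBhigh cells by 0.97 (SE 0.12, adjusted p = 0.000137 in limma) and relative to CD45RBlow cells by 0.60 (SE 0.12, adjusted p = 0.00693). Between CD45RBlow and CD45RBhigh cells Neu3 differed by 0.37 (SE 0.11), with an adjusted p of 0.0536 in limma and of 0.0329 with the block. Neu3 averaged 4.85 in Treg, 4.25 in CD45RBlow and 3.88 in CD45RBhigh arrays, under the median of the table, 4.88, so whether it reads above background is unknown. Of 3 measured genes for the lysosomal membrane and for delivery to it, Igf2r and Lamp1 were called in a comparison. The other, the membrane glycoprotein gene Lamp2, was higher in Treg than in CD45RBhigh cells by 0.58 (SE 0.24), with an adjusted p of 0.142 in limma, and by 0.51 with an adjusted p of 0.0442 with the block. Igf2r, the large receptor that carries hydrolases tagged with mannose 6-phosphate, read 10.25, 10.12 and 10.32 in Treg, against 9.20 to 9.44 in CD45RBlow and 9.34 to 9.63 in CD45RBhigh arrays. It rose by 0.90 (SE 0.09, adjusted p = 3.85e-05) and 0.76 (SE 0.09, adjusted p = 8.26e-05 in limma). Lamp1, a membrane glycoprotein of lysosomes, rose in Treg relative to CD45RBlow cells by 0.31 (SE 0.07, adjusted p = 0.0166 in limma). Lamp1 was not called against CD45RBhigh cells (0.15, adjusted p = 0.210 in limma). Thus 2 of these 3 genes were called in Treg against CD45RBlow cells, beside 12.5% of all probe sets. Against CD45RBhigh cells it was 1 of 3, beside 18.9%.

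The genes whose values over the 11 arrays ran most like a member's were found among the 900 other named genes by the root mean square (RMS) difference after each gene was centred on its own mean, a description with no test. For Arsb, whose values had an RMS of 0.60 around their mean, these were Tgfbr2, a TGF-beta receptor chain (0.31), and Ugcg, which starts glycosphingolipid synthesis (0.32). For Hexa (0.24 around its mean) they were Mfng, a Fringe glycosyltransferase (0.0853), and Neu1 (0.0860). Sgsh ran closest to Uggt1 and B4galt1, Idua to Smim7 and Angel2, Glb1 to Naxe and Mgat4b, Gm2a to Il17rd and Muc1, Gaa to B4galt3 and Khk, Ctsa to Zc3h11a and Cpsf7, and Psap to Hp1bp3 and Smim7. Among the members themselves, Ctsa and Psap were nearest to each other (0.106), as were Hexa and Gaa (0.126) and Glb1 and Gm2a (0.176), the only members that stood higher in Treg cells, while Arsb was at 0.438 or more from every other member. Gm2a had an RMS of only 0.164 around its own mean, less than its distance from Glb1, so nearest here does not mean alike. Ctsa had 0.120 around its mean, little above its distance from Psap.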

How the data were processed

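Biotin-labelled RNA, made from 0.5 µg of total RNA per sample per the labels' protocols, was hybridised to 11 arrays, 1 per sample. The authors deposited log2 expression values per probe set, made with Robust Multichip Average (RMA) per the labels and the series text, with background correction, quantile normalization and median polish as RMA defines them. Its version is not given in the sources used here. Values ran from 1.99 to 14.2, with array medians of 4.85 to 4.94, and were used as deposited. Of 984 probe sets with RefSeq identifiers 963 were named through RefSeq's GRCm38.p6 annotation, and 283 of all had no name here.

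The 9 members, the gene lists and the tests were chosen with earlier results of these data known. Population means were estimated for all 1246 probe sets in 1 limma fit (limma 3.58.1, R 4.3.3), moderated by empirical Bayes with 2.87 prior and 8 residual degrees of freedom. Two-sided p-values were adjusted per comparison by Benjamini-Hochberg over the whole table, with a threshold of 0.05. Genes named are the 9 members, genes of the lysosomal, non-lysosomal and targeting lists called in any comparison, the partners Neu1 and Galns, the 2 genes most like each member, and Il2ra, Cd44 and Ccr7. Some genes of the textbook list are not reported here and were left out of its counts. Genes of those lists called only with the block, cell type markers that were called and genes with a single distant array are named besides. On simulated data with independent noise, the Treg against CD45RBhigh fit over 1246 probe sets found 80.4% of changes of 0.5 and 96.9% of changes of 1 on the log2 scale, with 3.72% of calls false, rates that need not hold for the real arrays.

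Same-numbered arrays of different populations deviated together from their population means (correlations of 0.31 to 0.56 over 10 pairs), as did arrays of other numbers within replicates 1 and 2 or 3 and 4 (0.20 to 0.58). Between these 2 sets of replicates the correlations were negative (-0.65 to -0.18 over 20 pairs). Deviations from a mean of 3 or 4 arrays cancel out, so positive values within sets push those between sets down. The positive values within sets show the sets as well as the pairs, and the negative ones add no independent evidence. No label says what the numbers mark, so they are taken as pairs from the data alone, and the blocked value stands beside each call of a member or a gene of those lists that it changes. Alternatives changed the block, the normalization, the filter on dim probe sets, the moderation and the arrays included. Figures were drawn with matplotlib 3.10.9 and pandas 2.3.3 under Python 3.11.15.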

Additional observations from a re-analysis of the deposited data

Results flagged for a closer look

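In populations of 4 arrays, 60 sets of values of the measured lysosomal and related genes were searched for a single array far from the other 3. Dixon's rule, which marks about 1 in 20 such sets by chance, marked 4, none in the 9 members. Asah1, the acid ceramidase, read 7.78 in CD45RBlow replicate 3 and 8.07 to 8.08 in the others. Man2b1, the lysosomal alpha-mannosidase, read 5.42 in CD45RBhigh replicate 4 and 5.27 to 5.28 in the others. Gla, the alpha-galactosidase, read 6.19 in CD45RBhigh replicate 2 and 5.85 to 5.90 in the others. The sialidase gene Neu2 read 4.12 in CD45RBlow replicate 1 and 4.32 to 4.33 in the others.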

How the results depend on the processing

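Over 23 alternatives the sign of all 9 member differences stayed the same in both Treg comparisons, 207 of 207 values each, and between CD45RBlow and CD45RBhigh cells in 205 of 207 values. The exceptions were both of Sgsh, which was 0.10 within replicates 1 and 2 and 0.00355 without CD45RBhigh replicate 4, the end of a range of -0.15 to 0.00355 without 1 array. Several alternatives cannot change a difference, namely the moderation, treat, the filter on dim probe sets and the use of only the arrays compared. Leaving out an array of the population not compared cannot change it either. Those signs were fixed in advance, so these tallies overstate how far the signs were tried. For Treg against CD45RBhigh cells 9 members and 235 probe sets were called, against 1 and 88 within replicates 3 and 4 and 1 (Arsb) and 107 with treat at a 1.2-fold change. Leaving out 1 array gave 4 to 8 members, with 5, 4 and 4 without Treg replicates 1, 2 and 4, and 164 to 227 probe sets. For Treg against CD45RBlow cells the counts were 2 and 156, against 4 and 245 with the replicate block, 238 probe sets with the replicate set as a block, 1 and 49 within replicates 3 and 4, 1 and 73 with treat, and 1 to 2 and 110 to 162 without 1 array. For CD45RBlow against CD45RBhigh cells they were 2 and 157, against 5 and 271 with the replicate block, 5 and 247 with the replicate set as a block, and 4 members with the number as a random block. They were 1 member within replicates 1 and 2, 0 members and 63 probe sets within replicates 3 and 4, 0 members and 75 probe sets with treat, 1 member without dim probe sets, and 0 with only the arrays compared, with arrays centred on their median, or with trend and robust moderation. Without 1 array they were 0 to 2 members and 113 to 151 probe sets. Fewer arrays are fitted within replicate sets, and treat asks for a larger change, and the causes of the other moves were not tested. A mean over several rows per gene was not run, since each member has 1 row. The block changed no call of a member besides those named in the report.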
